A study of Mus musculus with 10 samples.

Results

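The chemokine ligands and chemokine receptors of the mouse were followed in urogenital systems of embryos with and without a homozygous Wnt9b mutation. Genes were taken by symbol. A gene was included where an array probe set carried a single symbol beginning with Ccl, Cxcl, Ccr or Cxcr and a digit, or the symbol Cx3cl1, Xcl1, Xcr1 or Ackr3. This gave 50 genes on 77 probe sets, of 18193 genes measured, and comprised 33 ligands and 17 receptors. The rule itself uses no measured value. RNA came from urogenital systems at embryonic day 15.5, a stage when the kidney forms nephrons beside the gonads, adrenal glands, ducts and bladder. In 5 pools the embryos had the genotype Wnt9bcneo/cneo and are called homozygous. In the other 5 pools, called control, the genotype label was Wnt9bcneo/+, whereas the sample titles and the series title named them wild type. Each pool held 1 to 2 urogenital systems, and nothing in the labels states how the cneo allele alters Wnt9b expression or that any other allele was present.

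Chemokines are small secreted proteins that guide moving cells along gradients. They act through G protein coupled receptors of the Gi class, which arrestins and RGS proteins turn off, while atypical receptors such as Ackr3 take the ligand up without this signal. Some ligands are made constantly and shape organs, as Cxcl12 does through Cxcr4 when germ cells reach the gonad, vessels form and blood progenitors home. Others are induced in inflammation and draw neutrophils, monocytes or lymphocytes into tissue.

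Levels are log2 of the deposited intensities, in which values below 16 were raised to that floor, so a log2 level of 4 means at or below the floor. Each gene was read from its brightest probe set. Levels of different genes are not comparable on this scale, and bulk RNA cannot tell fewer cells of a type from less RNA per cell. A gene was called changed at an adjusted p under 0.05 in limma (two-sided, Benjamini-Hochberg over all 18193 genes). The labels call the 5 pools of each genotype distinct, and the spread between pools is what the p-values rest on. Wnt9b itself was at 5.58 to 7.65 in homozygous and 6.92 to 7.16 in control pools, and since the altered part of the gene is not given, this does not check the labels. Kidney genes were present in every pool, with the nephron progenitor gene Six2 between 10.50 and 12.75. Other organs were not evenly present. Hsd3b1, from the adrenal cortex list, was at 4.00 and 4.03 in control pools 1 and 2. It was at 11.39 to 13.18 in the other control pools and 11.21 to 14.27 in homozygous pools. Homozygous arrays had 19.9% to 21.1% of probe sets at or under the floor and control arrays had 22.2% to 23.0%, so for dim genes a difference between genotypes and this difference between arrays cannot be told apart. Xist was high (13.75 to 14.27) in homozygous pools 3, 4 and 5 and at most 6.07 elsewhere. The mean of 3 Y-linked genes was at or near the floor (4.00) in these pools and 9.75 to 10.31 in the others. Pools without Y-linked signal thus occurred only among homozygous pools, so embryo sex and genotype are partly mixed in this comparison. Among pools with Y-linked signal, the fetal testis gene Cyp17a1 was at 4.00 in control pools 1, 2 and 4. It was at 12.29 to 12.89 in the others. The ratio of 3' to middle actin signal, which grows as RNA breaks down, reached 97.7 in homozygous pool 5 and 94.8 in control pool 1 and stayed at 9.87 to 33.1 elsewhere.

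A single chemokine gene passed the threshold, and it was higher in homozygous pools. This was Ccl8, so 1 of 50 genes was called (2.0%), against 0.967% of all genes, and 1 was called higher, against 0.539% of all genes. With 1 gene called, this share says nothing about the family. Ccl8 passed the threshold in 4 of the 22 alternative settings in which it was tested. Homozygous and control pools did not overlap for 5 of the 50 (10%), against 4.71% of all genes. These were Ccl8, Ccl12, Cxcl2, Cxcl12 and Cxcl13, and each was higher in homozygous pools; 2.61% of all genes separated in that direction. At an unadjusted p under 0.05 there were 9 chemokine genes (18%), against 15.7% of all genes, a share near the background. Of these 9, 8 were higher in homozygous pools and Ackr3 was lower.

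Counting direction alone, 37 of the 50 genes had a higher mean in homozygous pools (74.0%), and 13 had a lower mean. Over all genes 50.0% were higher and 46.1% lower, and 709 genes at the floor on every array had no direction. The median log2 difference was 0.22, against 0.00 for all genes. Ligands had a median difference of 0.41, with 24 of 33 higher, and receptors 0.11, with 13 of 17 higher. Much of the family was dim: 16 genes were at the floor on 5 or more of the 10 arrays, 12 on 1 to 4 arrays and 22 on none. With a floor of 32 the median over the 50 genes was 0.09, with 31 higher.

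**Figure D1:**
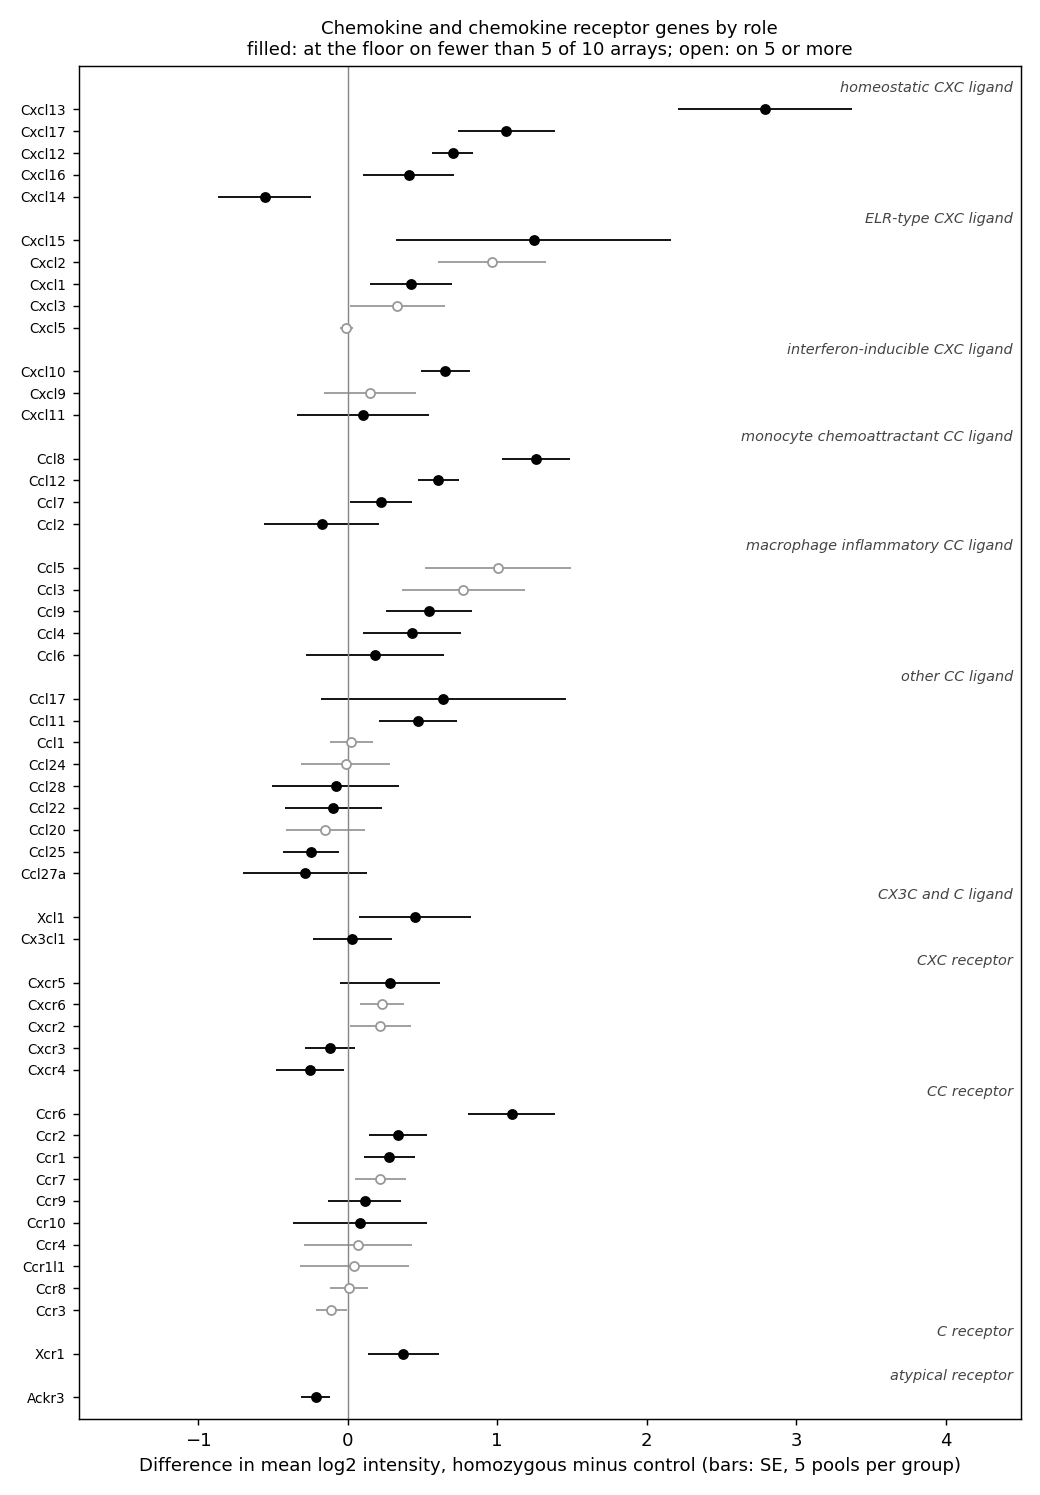
Difference in mean log2 intensity, homozygous minus control, for all 50 chemokine and receptor genes grouped by role, with bars for the SE over 5 pools per group. Most points lie to the right of 0, Cxcl13 lies farthest out at 2.79, and the open points mark genes at the floor on 5 or more of 10 arrays.

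The bright homeostatic ligands Cxcl12 and Cxcl13 were higher in every homozygous pool than in any control pool, and neither passed the threshold. Their sequences just before the transcription start are shown because the promoters differ in kind. Each run is the 250 bases before the RefSeq start, read on the plus strand of GRCm38.p6, from chr6:117168285-117168534 for Cxcl12 and chr5:95956689-95956938 for Cxcl13. Capitals mark matches, on either strand, to the promoter box TATAAA, to CTTTGA, the TCF/LEF core bound by nuclear effectors of Wnt signals, and to GGGCGG, known as the GC box.
Cxcl12: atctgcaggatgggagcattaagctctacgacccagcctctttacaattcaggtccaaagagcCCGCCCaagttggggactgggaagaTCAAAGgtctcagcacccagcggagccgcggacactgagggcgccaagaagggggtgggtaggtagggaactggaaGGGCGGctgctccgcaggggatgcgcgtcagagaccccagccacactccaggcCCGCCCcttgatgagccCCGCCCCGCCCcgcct
Cxcl13: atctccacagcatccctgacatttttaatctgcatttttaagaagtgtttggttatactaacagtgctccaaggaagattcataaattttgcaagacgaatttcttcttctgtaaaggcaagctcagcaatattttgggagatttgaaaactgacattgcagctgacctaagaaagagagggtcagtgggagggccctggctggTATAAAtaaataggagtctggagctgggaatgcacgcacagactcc
The Cxcl12 window had a GC content of 64.4%, 5 GC box matches and no TATAAA. Its TCF/LEF match began at -162, counted from the start site, and the GC boxes at -16 and -11 overlap by 1 base. The Cxcl13 window had a GC content of 42.0%, with TATAAA from -46. These are letter matches, not measured binding.

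Cxcl12, the ligand of Cxcr4 and Ackr3 made by stromal cells, was at 12.64, 12.71, 13.15, 12.68 and 12.97 in homozygous pools 1 to 5. Control pools 1 to 5 were at 12.01, 12.28, 12.40, 11.80 and 12.15. The highest control pool thus lay below the lowest homozygous pool. The means were 12.83 ± 0.22 (SD, n = 5) and 12.13 ± 0.24 (SD, n = 5), a log2 difference of 0.70 ± 0.14 (SE), or 1.63-fold, with an adjusted p of 0.0558 in limma. Another bright probe set of Cxcl12 differed by 0.18, from 11.27 in control to 11.45 in homozygous pools, and its groups overlapped. The mean over the gene's probe sets differed by 0.37 (adjusted p = 0.0787 in limma).

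Cxcl13, which draws B cells and other Cxcr5-bearing cells and organises lymphoid tissue, had the largest difference of the family. Homozygous pools 1 to 5 were at 11.04, 11.001, 12.05, 10.75 and 11.39. Control pools 1 to 5 were at 8.13, 10.42, 7.26, 8.96 and 7.51. The homozygous pools lay close together, whereas the control pools spread widely and control pool 2 came near the homozygous range. The means were 11.25 ± 0.51 (SD, n = 5) and 8.45 ± 1.28 (SD, n = 5), a log2 difference of 2.79 ± 0.58 (SE), or 6.92-fold, with an adjusted p of 0.0632 in limma. Without control pool 2 the log2 difference was 3.28 with an adjusted p of 0.0147 in limma. With any other single pool left out it was 2.49 to 2.92, with adjusted p of 0.0786 to 0.159 in limma. Without the 3 pools of high Xist it was 2.56, with an adjusted p of 0.474 in limma. Control pool 2 was also the highest control pool for the marker lists of smooth muscle (10.69), sympathetic neurons (8.73) and bladder lining (8.87), and their part in its Cxcl13 level was not tested. The dimmer probe set of Cxcl13 differed by 0.71, from 5.05 to 5.76, and its groups overlapped.

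The other ligands of this class did not share one direction. Cxcl17, a ligand of mucosal surfaces, was at 6.22, 5.43, 5.41, 6.03 and 6.30 in homozygous pools 1 to 5 and at 4.42, 5.64, 5.13, 4.00 and 4.90 in control pools 1 to 5. Only control pool 2 reached into the homozygous range. This gave a log2 difference of 1.06 ± 0.32 (SE; adjusted p = 0.153 in limma). Cxcl14, an epithelial ligand, was instead lower by 0.56 ± 0.31 (SE; adjusted p = 0.452 in limma), at 8.16 to 8.83 in homozygous and 8.44 to 10.14 in control pools. Its top value was again in control pool 2, and its second probe set differed by -0.63. Without control pool 2 the Cxcl14 difference was -0.27. For Cxcl16, the membrane-bound ligand of Cxcr6, the brighter probe set differed by 0.41 and the other by -0.47, so no direction can be given.

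**Figure D2:**
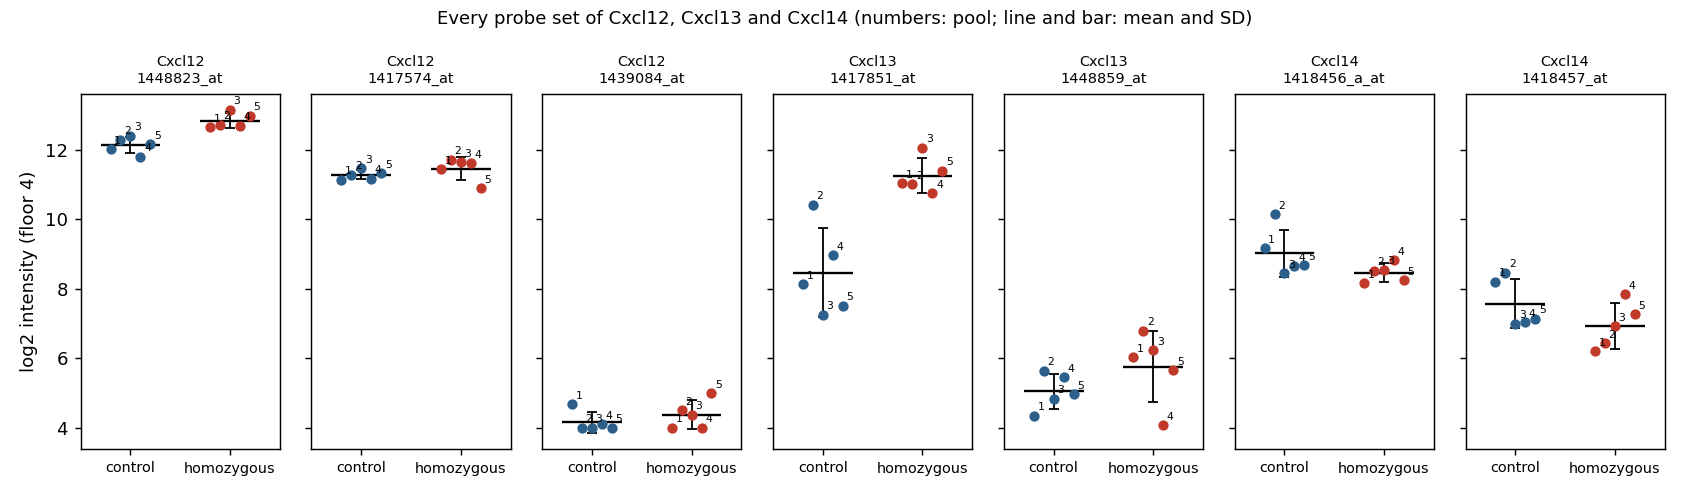
Log2 intensity of every probe set of Cxcl12, Cxcl13 and Cxcl14 in each numbered pool, control and homozygous side by side, with the mean and SD per group. The brightest Cxcl12 and Cxcl13 probe sets separate the groups, while the other probe sets of these genes overlap.

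Among the monocyte chemoattractants, Ccl8 was higher and passed the threshold, and Ccl12 was higher without passing it. Ccl8, a ligand that draws monocytes and lymphocytes and is made by tissue macrophages, lies next to Ccl12 on chromosome 11. Their promoter windows are shown because these neighbours both separated the groups. The windows are chr11:82114935-82115184 for Ccl8 and chr11:82101595-82101844 for Ccl12, plus strand, GRCm38.p6, with the same motifs in capitals.
Ccl8: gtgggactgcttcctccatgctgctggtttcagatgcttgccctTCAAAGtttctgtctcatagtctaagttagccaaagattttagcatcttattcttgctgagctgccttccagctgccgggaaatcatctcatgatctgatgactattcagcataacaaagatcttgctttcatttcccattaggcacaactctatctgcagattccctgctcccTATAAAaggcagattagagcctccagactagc
Ccl12: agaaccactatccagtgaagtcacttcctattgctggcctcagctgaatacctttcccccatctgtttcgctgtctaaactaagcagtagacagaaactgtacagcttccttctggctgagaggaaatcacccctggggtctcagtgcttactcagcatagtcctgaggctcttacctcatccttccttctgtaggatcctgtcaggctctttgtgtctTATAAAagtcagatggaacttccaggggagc
TATAAA began at -32 in Ccl8 and at -31 in Ccl12, and Ccl8 also had a TCF/LEF match from -206. Of the 50 genes, 37 had a promoter entry, and TATAAA was found in 13 of these (35.1%), against 12.4% of all 32851 entries of this length. CTTTGA was found in 8 (21.6%, against 13.8%) and GGGCGG in 7 (18.9%, against 32.7%). A chemokine gene counted when any of its entries matched, whereas the shares of all entries count single entries. The shares are thus not in the same unit, and a gene with several entries had more chances to match.

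Ccl8 was at 5.47, 5.92, 5.31, 5.61 and 5.999 in homozygous pools 1 to 5. It was at 4.24, 4.89, 4.00, 4.00 and 4.87 in control pools 1 to 5. No control pool reached the lowest homozygous pool, and control pools 3 and 4 were at the floor. The means were 5.66 ± 0.29 (SD, n = 5) and 4.40 ± 0.45 (SD, n = 5), a log2 difference of 1.26 ± 0.23 (SE; adjusted p = 0.0473 in limma). The exact two-sided permutation test gave p = 0.00794, its minimum for groups of 5. Only control pools were at the floor. For a gene this dim, the genotype difference cannot be told apart from the higher share of control probe sets at or under the floor. The call was lost when homozygous pool 1, 2, 3, 4 or 5 or control pool 1, 3, 4 or 5 was left out, with adjusted p of 0.0623 to 0.134, and kept without control pool 2 (0.0268). It was also lost with a floor of 32 (difference 0.66, adjusted p = 0.0580 in limma), with quantile normalization (0.0601) and without the 3 pools of high Xist (0.369), where the difference was 1.29.

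Ccl12, a further monocyte ligand acting through Ccr2, was at 7.38, 7.40, 7.54, 7.17 and 7.24 in homozygous pools 1 to 5. Control pools 1 to 5 were at 6.73, 6.78, 6.48, 6.68 and 7.02. The groups did not overlap, with control pool 5 nearest to the homozygous range. The means differed by 0.61 ± 0.14 (SE; adjusted p = 0.0753 in limma). Ccl2 and Ccl7, the other monocyte chemoattractants, differed by -0.17 and 0.22 with overlapping groups. Along the chromosome the neighbours read Ccl2, Ccl7, Ccl11, Ccl12, Ccl8 and Ccl1, with log2 differences of -0.17, 0.22, 0.47, 0.61, 1.26 and 0.03. The eosinophil attractant Ccl11 was at 7.46 to 7.95 in homozygous and 6.47 to 8.02 in control pools, a difference of 0.47 ± 0.26 (SE; adjusted p = 0.441 in limma), or 0.28 without control pool 5.

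The macrophage inflammatory ligands Ccl3, Ccl4, Ccl5, Ccl6 and Ccl9 lie side by side in a second cluster on chromosome 11. On their brightest probe sets all 5 had higher means in homozygous pools, with differences of 0.77, 0.43, 1.01, 0.18 and 0.54. Of the 5, 0 passed the threshold, and their smallest adjusted p was 0.370 in limma. The second probe set of Ccl6, above the floor on every array, differed by -0.24, so no direction can be given for Ccl6. Ccl3 was at the floor on 6 arrays. Ccl5, a T cell and monocyte attractant, was at 4.00, 5.48, 6.78, 4.94 and 4.00 in homozygous pools 1 to 5. Control pool 1 was at 4.16 and the other control pools were at the floor. Homozygous pools 2, 3 and 4 thus stood above the controls, while homozygous pools 1 and 5 were at the floor. Without homozygous pool 3 the Ccl5 difference was 0.57. For Ccl3, Ccl4 and Ccl9 the highest pool was homozygous pool 5, at 6.36, 7.33 and 8.12.

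Of the 5 neutrophil attractants of the ELR type, Cxcl1, Cxcl2 and Cxcl3 were highest in homozygous pool 5, and Cxcl5 and Cxcl15 in control pool 2. Cxcl2 was at 4.03, 4.71, 4.96, 4.75 and 6.37 in homozygous pools 1 to 5 and at the floor in all control pools. The groups did not overlap, though homozygous pool 1 lay barely above the floor. The log2 difference was 0.97 ± 0.36 (SE; adjusted p = 0.237 in limma), and it was 0.61 without homozygous pool 5 and 0.27 with a floor of 32. Cxcl1 was at 7.69 to 9.12 in homozygous and 7.32 to 8.22 in control pools, with its highest value in homozygous pool 5 and a difference of 0.42 ± 0.28 (SE; adjusted p = 0.521 in limma), which was 0.20 without that pool. Its other probe sets differed by 0.53 and 0.81, and homozygous pool 5 was highest on each. Cxcl3 was above 4.05 in homozygous pool 5 alone, at 5.69, and Cxcl5 reached 4.18 at most.

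Homozygous pools 5 and 3 carried many of the highest chemokine values, though pool 5 was also often the highest over all genes. Homozygous pool 5 was the highest of the 10 pools for 14 of the 50 genes, against 19.5% of all genes. Homozygous pool 3 was the highest for 11, against 9.47% of all genes. Homozygous pool 5 had the actin ratio of 97.7 and a neutrophil marker mean of 8.10, near the highest of any pool (8.22 in homozygous pool 1), and their part in these values was not tested.

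Cxcl15 was chosen for mention after its values were seen. It was at 5.79, 4.00, 5.75, 7.38 and 7.23 in homozygous pools 1 to 5 and at 4.00, 7.80, 4.12, 4.00 and 4.00 in control pools 1 to 5. The highest pool was control pool 2, so the difference of 1.24 ± 0.92 (SE; adjusted p = 0.577 in limma) lay within the spread of the pools. Its second probe set ran from 4.00 to 6.57 and was also highest in control pool 2.

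Of the interferon-inducible ligands of Cxcr3, Cxcl10 separated the groups most nearly. It was at 6.26, 6.54, 6.43, 5.97 and 6.36 in homozygous pools 1 to 5 and at 6.02, 5.78, 5.53, 5.70 and 5.27 in control pools 1 to 5. Control pool 1 lay just above homozygous pool 4, and all other control pools lay below the homozygous range. The log2 difference was 0.65 ± 0.16 (SE; adjusted p = 0.0952 in limma; exact two-sided permutation p = 0.0159). Cxcl9 and Cxcl11 differed by 0.15 and 0.10, and Cxcl9 was at the floor in most pools. Their receptor Cxcr3 differed by -0.12.

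The remaining CC ligands had small differences. Of the 9 in this class, Ccl11 included, 3 had higher means and 0 passed the threshold, with a median difference of -0.08. Ccl25, the thymus and gut ligand of Ccr9, was at 6.44 to 7.40 in homozygous and 7.09 to 7.45 in control pools, a difference of -0.24 ± 0.19 (SE; adjusted p = 0.597 in limma), and without homozygous pool 5 it was -0.095. Ccl27a, a ligand of Ccr10, was at 6.74 to 8.72 and 7.70 to 9.06, a difference of -0.29 ± 0.42 (SE; adjusted p = 0.781 in limma), and without homozygous pool 5 the difference was 0.04. Ccl17, Ccl22 and the membrane-bound ligand Cx3cl1, neighbours on chromosome 8, differed by 0.64, -0.10 and 0.03. Xcl1, the lymphotactin gene, differed by 0.45 and its receptor gene Xcr1 by 0.37, both near the floor.

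**Figure D3:**
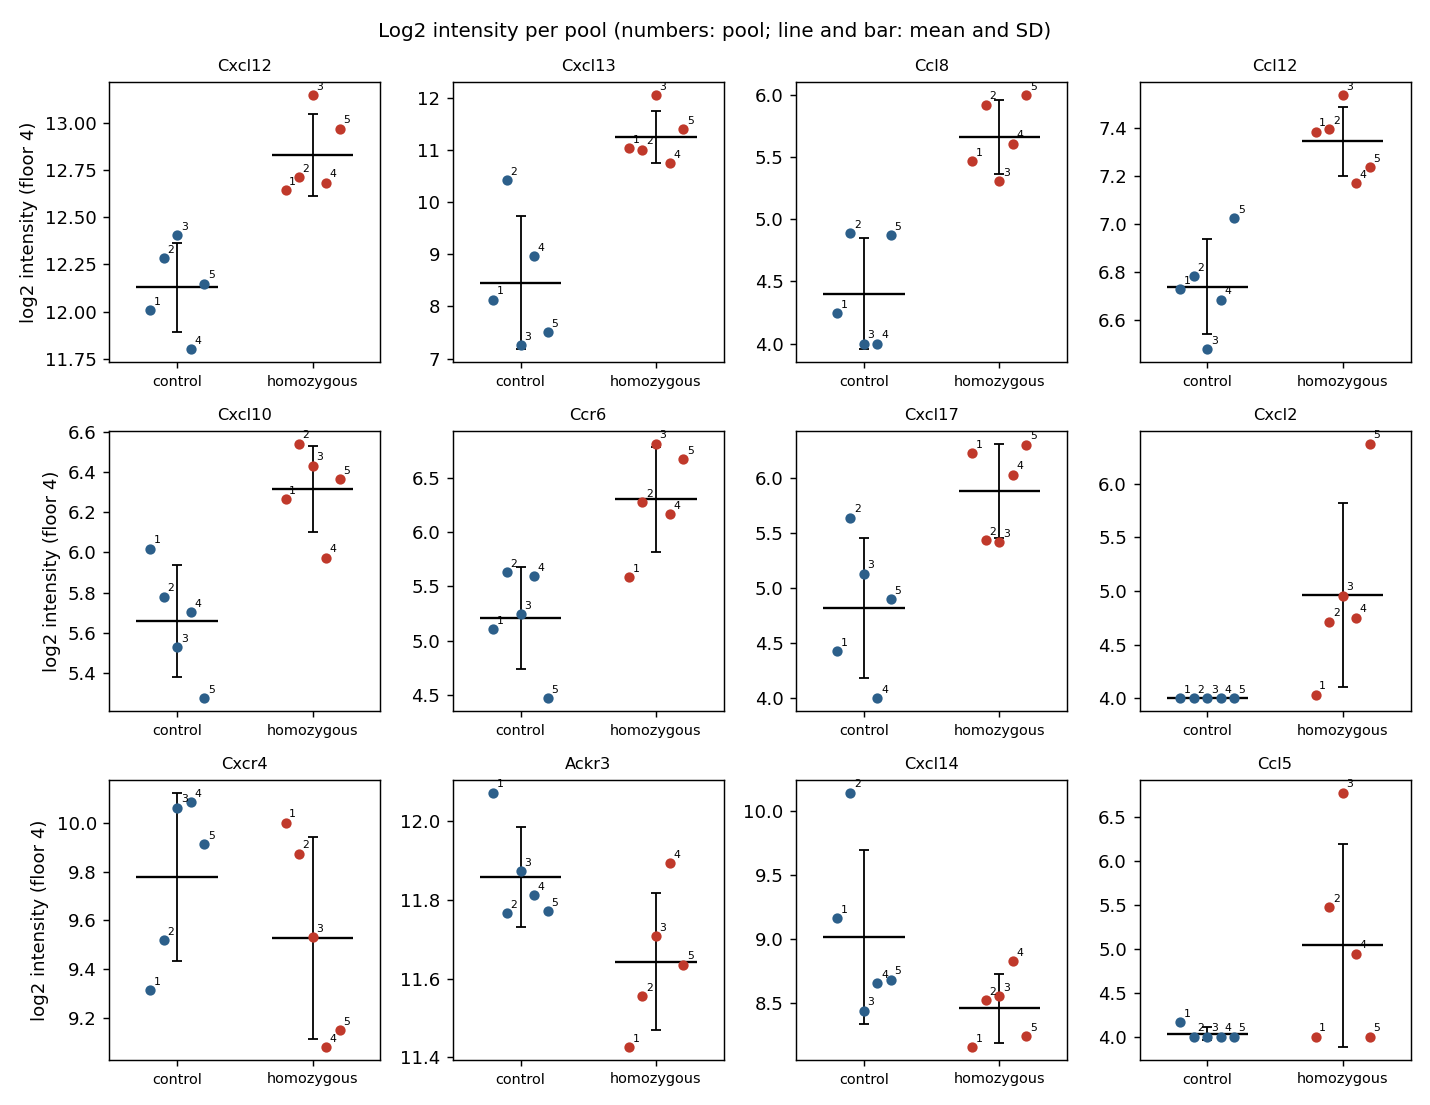
Log2 intensity of 12 chemokine and receptor genes in each numbered pool, control (blue) and homozygous (red), with the mean and SD per group and a separate vertical scale per gene. Cxcl12, Cxcl13, Ccl8 and Ccl12 show a gap between the groups, whereas Cxcr4, Ackr3, Cxcl14 and Ccl5 overlap; in Cxcl2 all control pools lie at the floor of 4.

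The receptors of Cxcl12 did not follow their ligand. Cxcr4, the signalling receptor, was at 10.001, 9.88, 9.53, 9.08 and 9.15 in homozygous pools 1 to 5. Control pools 1 to 5 were at 9.31, 9.52, 10.06, 10.09 and 9.91. The groups overlapped along most of the range. The log2 difference was -0.25 ± 0.23 (SE; adjusted p = 0.663 in limma), and without the 3 pools of high Xist it was 0.16, so its direction is not settled. Ackr3, the atypical receptor that removes Cxcl12, was at 11.43, 11.56, 11.71, 11.89 and 11.64 in homozygous pools 1 to 5 and at 12.07, 11.77, 11.87, 11.81 and 11.77 in control pools 1 to 5. Homozygous pool 4 lay within the control range and the other homozygous pools lay below it. The log2 difference was -0.22 ± 0.09 (SE; adjusted p = 0.314 in limma; exact two-sided permutation p = 0.0635).

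Of the CC receptors 9 of 10 had higher means in homozygous pools, against 50.0% of all genes, with a median difference of 0.10. Of the 10, 0 passed the threshold. Several were dim: Ccr8 (0.01) was at the floor on 8 arrays, and Ccr1l1 (0.04), Ccr4 (0.07) and Ccr7 (0.22) on 5 each. Ccr3, the lower one, was at the floor on 9. Ccr6, the receptor of Ccl20 on lymphoid and dendritic cells, stood out by size. It was at 5.58, 6.28, 6.82, 6.17 and 6.68 in homozygous pools 1 to 5 and at 5.10, 5.63, 5.25, 5.60 and 4.47 in control pools 1 to 5. Homozygous pool 1 lay below control pools 2 and 4, and the other homozygous pools lay above all controls. The means differed by 1.10 ± 0.29 (SE; adjusted p = 0.108 in limma; exact two-sided permutation p = 0.0238). Its ligand gene Ccl20 was at the floor in most pools and differed by -0.15. Ccr1, the receptor of the macrophage inflammatory ligands, was at 7.09 to 7.66 in homozygous and 6.70 to 7.27 in control pools, a difference of 0.28 ± 0.17 (SE; adjusted p = 0.492 in limma). Without the 3 pools of high Xist the differences of Ccr6 and Ccr1 were 0.72 and 0.11.

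Ccr2, the receptor of the monocyte ligands, differed by 0.33, at 6.38 to 7.07 in homozygous and 5.91 to 6.72 in control pools. On chromosome 9 the receptor genes Ccr9, Cxcr6, Xcr1, Ccr1, Ccr1l1, Ccr3 and Ccr2 follow each other, with log2 differences of 0.11, 0.23, 0.37, 0.28, 0.04, -0.11 and 0.33. Cxcr5, the receptor of Cxcl13, was at 4.00 to 5.40 in homozygous and 4.00 to 5.41 in control pools and differed by 0.28 ± 0.33 (SE), so the pools high in Cxcl13 did not separate by its receptor. Cxcr2, which reads the neutrophil attractants, was above the floor in homozygous pool 5 alone, at 5.08.

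**Figure D4:**
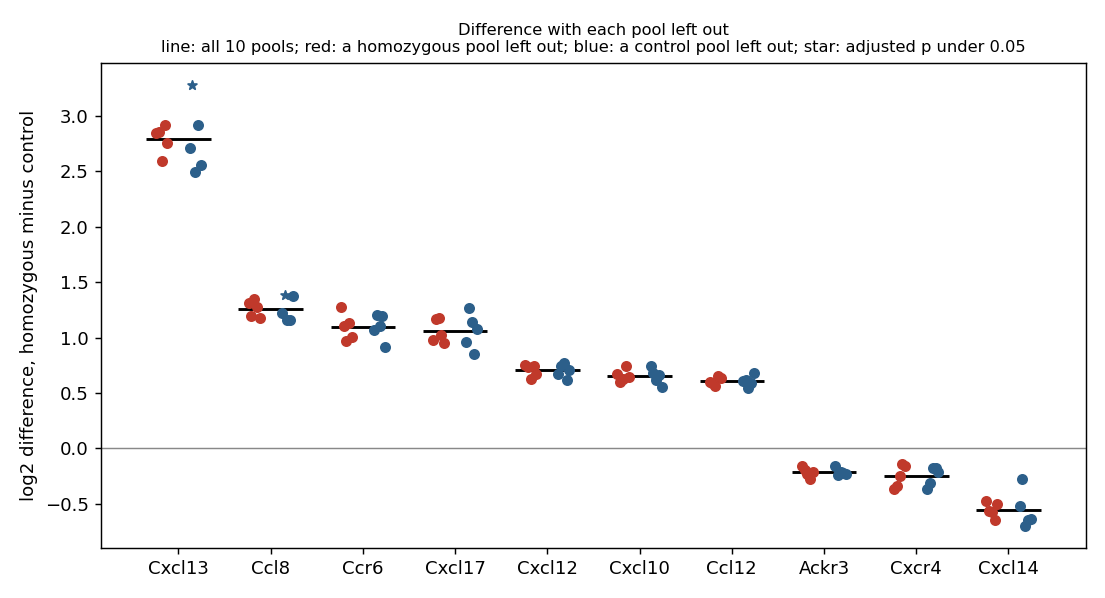
Log2 difference, homozygous minus control, for 10 named genes with each pool left out in turn; the black line is the value with all 10 pools, red points leave out a homozygous pool, blue points a control pool, and stars mark an adjusted p under 0.05 in limma. No sign changes among these genes, and the stars appear when control pool 2 is left out, for Cxcl13 (3.28) and Ccl8 (1.38).

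Around the ligands and receptors, a list of 46 genes of chemokine signalling and handling was read, of which 45 were measured. It holds G protein subunits, arrestins, receptor kinases, RGS proteins, downstream effectors, ligand-cutting proteases and chemokines with older symbols. In homozygous pools 36 had higher means and 9 lower, with a median difference of 0.22, and 1 was called higher and 1 lower. Dpp4, the membrane peptidase that inactivates Cxcl12 by cutting its end, fell by 1.09 ± 0.18 in log2 intensity (SE; adjusted p = 0.0374 in limma). It was at 9.47, 10.09, 9.60, 10.11 and 9.52 in homozygous and 11.01, 10.42, 11.10, 10.86 and 10.86 in control pools 1 to 5, with no overlap. The kidney marker list was also lower on average, with a mean of 8.48 to 9.20 in homozygous and 9.17 to 9.81 in control pools and 8 of 10 genes lower. Dpp4 is abundant on the proximal tubule, and Slc34a1, the phosphate transporter of that segment, fell by 1.17 (adjusted p = 0.0364 in limma); the part of the kidney genes in the Dpp4 value was not tested.

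Rgs4, a brake on Gi and Gq signals that neurons also express, rose by 3.87 ± 0.71 in log2 intensity (SE; adjusted p = 0.0473 in limma). It was at 10.76, 9.60, 10.58, 9.45 and 10.90 in homozygous pools and 4.00, 7.82, 5.77, 7.44 and 6.89 in control pools 1 to 5. The groups lay far apart, with control pool 2 the highest control. The list of sympathetic neuron and chromaffin genes was at 9.30 to 10.71 in homozygous and 6.10 to 8.73 in control pools, with 11 of 11 genes higher and control pool 2 again the highest control, and its part in Rgs4 was not tested. Next by p came Pf4, the platelet chemokine also known as Cxcl4, with a difference of 1.20 ± 0.24 (SE; adjusted p = 0.0583 in limma). It was at 10.27 to 11.47 in homozygous and 9.19 to 10.05 in control pools, with no overlap. The platelet and megakaryocyte list, with 4 genes, was at 5.40 to 5.68 and 4.88 to 5.81. The related platelet chemokine gene Ppbp differed by 0.48 with overlapping groups. Rgs2 (1.55, adjusted p = 0.0753 in limma), the matrix protease gene Mmp2 (0.50, 0.117) and the leukocyte exchange factor gene Vav1 (0.45, 0.150) completed the 6 with the smallest p. With any 1 pool left out, Rgs4 kept its call only without control pool 2, with adjusted p of 0.0296 to 0.141 over the 10 fits. Dpp4 kept its call without control pool 2, homozygous pool 2 or homozygous pool 4, with adjusted p of 0.0196 to 0.114.

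Marker lists of cells that make or read chemokines also differed in mean between the genotypes, some higher and some lower in homozygous pools. Of 15 macrophage genes 13 were higher in homozygous pools, and Adgre1 (0.67) and Csf1r (0.60) passed the threshold. The list mean was 7.58 to 8.09 in homozygous and 7.10 to 7.66 in control pools, with homozygous pool 5 the lowest homozygous pool, and C1qa was at the floor on all arrays. With 1 pool left out, Csf1r kept its call only without control pool 2, and Adgre1, Prox1 and Slc34a1 kept theirs only without control pool 2 or homozygous pool 2. The part of macrophage RNA in the Ccl8 and Ccl12 differences was not tested. For T and NK cells 5 of 8 genes were higher, with list means of 4.51 to 5.00 and 4.20 to 4.46, while the T cell receptor genes Cd3e and Cd3d were at the floor in every pool. Il7r led that list, with a difference of 2.41 (adjusted p = 0.0558 in limma), and the narrow gap between the list means rests on it. B cell genes were higher in 1 of 6 cases, with list means of 5.73 to 6.15 and 5.68 to 6.64. Neutrophil genes were higher in 7 of 8 cases, at 6.55 to 8.22 and 5.19 to 7.79. The 4 lymphatic endothelial genes were all higher, at 9.24 to 9.69 against 8.28 to 8.997, with Prox1 called (1.03). General endothelial genes, whose cells also make Cxcl12, were lower in 9 of 10 cases, at 7.90 to 8.46 and 7.84 to 8.84. Smooth muscle genes were higher in 6 of 6 cases, at 9.22 to 12.08 and 8.003 to 10.69. The part of these cell types in the chemokine values was not tested.

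**Figure D5:**
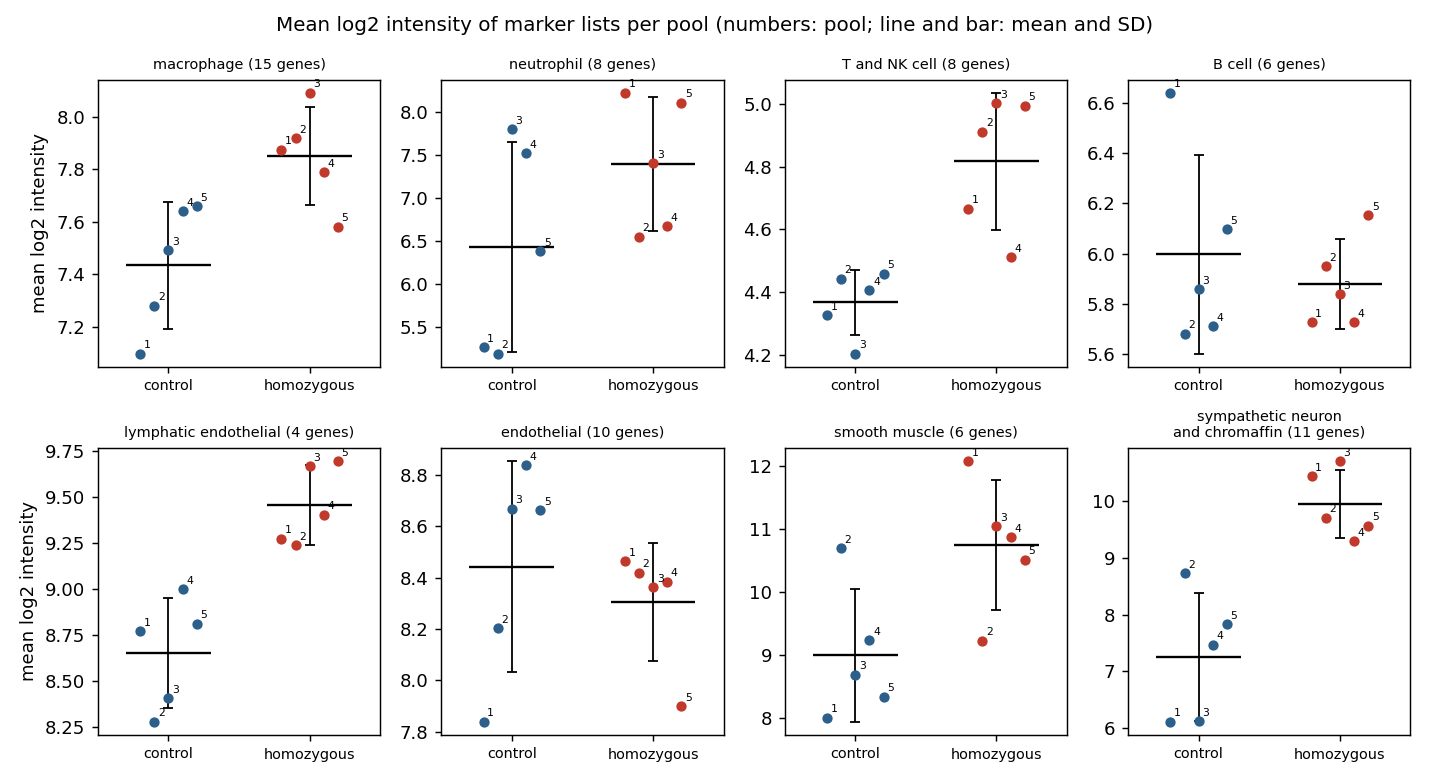
Mean log2 intensity of 8 marker lists in each numbered pool, control (blue) and homozygous (red), with the mean and SD per group and a separate vertical scale per list. The lymphatic endothelial, sympathetic and T and NK cell lists do not overlap between the genotypes, the macrophage list overlaps at 7.58 to 7.66, and the B cell, neutrophil and endothelial lists overlap widely. The gap of the T and NK cell list is narrow (4.46 to 4.51) and rests on Il7r.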

How the data were processed

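RNA was extracted with Trizol, and biotin-labelled cRNA of 5 pools per genotype was hybridized to Affymetrix arrays, per the labels' protocols. The series design text describes another stage, tissue and Wnt9b allele than the sample labels, which were followed here. The values deposited by the authors are linear intensities, 1 for each probe set on each array. Trimmed of the top and bottom 2%, every array had a mean of 500. The summarization method is not given in the sources used here, and such scaling hides any change in total RNA.

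Of 45101 probe sets, 34945 carried 1 gene symbol in the platform annotation, 932 several and 9160 none, and 64 were Affymetrix controls. For this work intensities were floored at 16, taken to log2, and reduced to the brightest probe set of each of 18193 genes. The 2 genotypes were set against each other in limma 3.58.1 under R 4.3.3 (lmFit, eBayes with an intensity trend) and by exact two-sided permutation over 252 regroupings. The limma fit was tested on simulated data without tissue, sex or RNA quality differences between pools. That test thus gives no error rate for these data. Median intensity was 74.75 to 98.63 per array. Precision is limited by the number of arrays. Promoters come from RefSeq (GRCm38.p6), matched by symbol.

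The genes, and the 19 lists of pathway and cell type genes (173 of 187 list genes measured), were chosen with earlier results of these data known. Values are given for Cxcl12, Cxcr4 and Ackr3, every chemokine gene past the threshold or without overlap, the 10 brightest and the 10 with the smallest p. From the pathway list those past the threshold or the 6 with the smallest p are given. Other genes are given by role, and those picked after their values were seen are named as such. In all, 24 alternative settings were run.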

Additional observations from a re-analysis of the deposited data

Results flagged for a closer look

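In the control group Ccl5 had a single pool off the floor, control pool 1, at a log2 intensity of 4.16 against 4.00 in the other 4 control pools. This pool was flagged because its gap to the rest made up the whole range of the group. It was the 1 flag among 34 groups of 5 pools examined for the 17 chemokine genes that the rule for named genes picked. Chance flags about 1 in 20 groups without tied values. With the other 4 pools at the floor, any value above it is flagged, so that rate does not apply here. The excess is small beside the homozygous pools 2, 3 and 4, at 4.94 to 6.78.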

How the results depend on the processing

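The median log2 difference of the chemokine genes tested stayed above 0 in all 24 alternatives, from 0.09 with a floor of 32 to 0.37 over genes above the floor on all arrays, and the calls depended on the setting. Leaving out the intensity trend, blocking by replicate number and fitting probe sets singly could not change this median, since the same mean differences enter it. The number of chemokine genes called, 1 with all 10 pools, was 0 with the mean of all probe sets, probe sets fitted singly, a floor of 32, quantile normalization, Y-linked level as a covariate, without the 3 pools of high Xist and without the 2 arrays of high actin ratio. It was 2 with log2 of intensity plus 16, without the dimmest 60% of genes and over genes above the floor on all arrays (Cxcl12 and Cxcl13 each time), 2 with median centring (Ccl8 and Cxcl13), 2 without the intensity trend (Ccl8 and Ccl12), and 4 with array weights (Ccl8, Cxcl10, Cxcl12 and Cxcl13). Leaving out 1 pool gave 0 to 2, with 2 only without control pool 2. Over all genes, 176 calls became 109 with the mean of probe sets, 88 fitted singly, 94 with a floor of 32, 302 with log2 of intensity plus 16, 108 without the dimmest 60%, 356 above the floor on all arrays, 951 with array weights, 13 with the Y-linked covariate, 28 without the pools of high Xist, 23 without the arrays of high actin ratio, and 3 to 414 with 1 pool left out (3 without homozygous pool 3 or control pool 3, 414 without control pool 2). The replicate number as a block gave 0 chemokine genes and 1 gene in all; same-numbered pools had correlations of their deviations of -0.55 to -0.17, so the numbers do not pair the samples. Cxcr4 reversed to 0.13 with the Y-linked covariate and 0.16 without the pools of high Xist. Ccl27a reversed to 0.26 and 0.29 in these, and with 1 pool left out it ran from -0.45 to 0.042 (without homozygous pool 5). The cause was not tested. Signal near the floor limits the 28 genes at it on any array, whose differences the floor can shift either way.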

Other observations

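Ccl17, a ligand of Ccr4 singled out after its values were seen, varied widely within each genotype. It was at 7.28, 7.59, 6.14, 5.48 and 6.35 in homozygous pools 1 to 5 and at 4.98, 5.03, 7.97, 4.08 and 7.60 in control pools 1 to 5. Cyp17a1, a steroid enzyme of fetal testis Leydig cells, was at 12.29, 12.89, 5.23, 4.79 and 4.00 in homozygous pools and at 4.00, 4.00, 12.81, 4.00 and 12.30 in control pools. The same 4 pools, homozygous 1 and 2 and control 3 and 5, held the 4 highest values of both genes.

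Lists of other tissues varied between pools, and several also had higher means in homozygous pools. Skeletal muscle and adrenal cortex genes were higher in 8 of 8 cases each, with median differences of 2.03 and 2.02 and 0 called. For gonad and duct genes 8 of 9 were higher, for bladder genes 5 of 6, for mast cell genes 3 of 7 and for dendritic cell genes 3 of 4. The part of these tissues in the chemokine values was not tested. Skeletal muscle genes had pool means of 7.82 to 10.99 in homozygous and 5.11 to 11.34 in control pools, adrenal cortex genes 7.96 to 11.13 and 4.93 to 10.50, and gonad and duct genes 5.73 to 8.46 and 5.42 to 8.49. Bladder genes ran from 7.02 to 8.68 and from 6.40 to 8.87. Mast cell genes ran from 6.85 to 7.16 and from 6.69 to 7.501, and dendritic cell genes from 5.73 to 6.25 and from 5.40 to 5.90.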
